A study of Mus musculus with 36 samples.

Results

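Entorhinal cortex was compared with the hippocampal fields CA1 and CA3 in 36 messenger RNA libraries from wild-type mice of BL/6 background, which were all the libraries of the study. The entorhinal side held 18 libraries, 9 from the lateral (LEC) and 9 from the medial entorhinal cortex (MEC), and the hippocampal side held 18 libraries, 9 from CA1 and 9 from CA3. Libraries were assigned by their tissue labels, each region counted equally, and the treatment was a covariate. In every region there were 3 libraries of foot-shocked mice (fear), 3 of the context exposure group and 3 of mice kept in the home cage. All mice were housed singly and handled for 3 minutes a day over 5 days, and tissue was taken 90 minutes into or after the paradigm, whose wording leaves this unclear. The age of the mice is not given in the sources used here. The design text states that the 4 regions were dissected from each mouse, but replicate numbers are not tied to mice, so p-values cover the variation among libraries, and those of different regions may share a mouse.

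The entorhinal cortex is periallocortex with layers that resemble those of the neocortex, and its superficial layers send the perforant path to the dentate gyrus, CA3 and CA1. The hippocampal fields are allocortex with a single layer of pyramidal neurons, CA3 sends Schaffer collaterals to CA1, and CA1 projects back to the deep entorhinal layers. A dissected region also holds interneurons, glia and vessels, so each value is a mixture over the cell types of the tissue, in which fewer cells of a type and less RNA per cell cannot be told apart.

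Between 21871412 and 68974340 counts were summed per library (median 28098008), and the ranges of the 4 regions overlapped. Replicates of a group differed by more than sampling noise in every pair of libraries compared, so none was counted as a repeat of another. The first principal component of log2 CPM (counts scaled to library size) carried 36.3% of the variance and separated all entorhinal from all hippocampal libraries. Its scores lay between -55.6 and -39.1 in LEC and between -55.6 and -42.8 in MEC, against 38.4 to 48.3 in CA1 and 45.0 to 68.9 in CA3. The second component, with 11.9% of the variance, ran from -48.6 to -18.6 in CA1 and from -17.1 to 68.6 in CA3, so the fields met there without overlap. In components of 1 region at a time, context 2 and home cage 2 lay at opposite ends of the first component of both hippocampal fields, at 61.7 and -57.0 in CA1 (others -37.7 to 17.6) and at -70.2 and 79.6 in CA3 (others -48.6 to 22.4), and the counts over all genes were repeated without these 4 libraries.

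**Figure D1:**
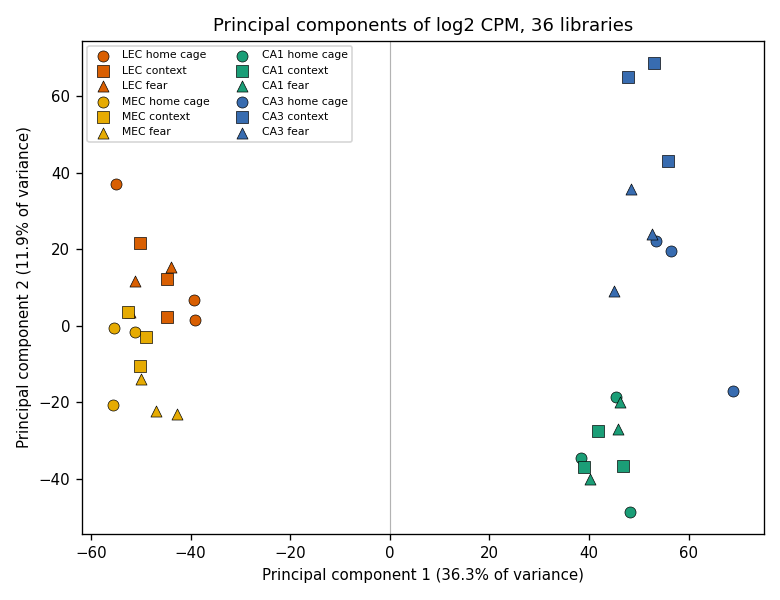
Principal component scores of the 36 libraries (axes: component scores of log2 CPM, with the share of variance); colour marks the region and symbol the condition. Entorhinal libraries lie below -39 and hippocampal libraries above 38 on the first component.

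Of 16594 genes tested, 8604 (51.9%) were called different between entorhinal and hippocampal libraries at an adjusted p under 0.05 (edgeR's quasi-likelihood test with Benjamini-Hochberg adjustment, as for every adjusted p below), 4393 (26.5%) higher and 4211 (25.4%) lower in entorhinal cortex. With offsets for GC content and transcript length, the split was 3859 higher and 6092 lower, so 38.8% of calls were higher, against 51.1% without them. LEC was higher than CA1 for 4224 genes (25.5%) and lower for 3618 (21.8%), and higher than CA3 for 3511 (21.2%) and lower for 3193 (19.2%). MEC was higher than CA1 for 3859 genes (23.3%) and lower for 3493 (21%), and higher than CA3 for 3258 (19.6%) and lower for 3180 (19.2%). These 4 pairs share libraries, so they are set side by side only. A difference was taken to hold in all 4 pairs when it was called in the overall comparison and in each pair with the same sign. This was so for 1691 genes (10.2%) higher and 1275 genes (7.68%) lower in entorhinal cortex, and with at least 2-fold in every pair for 634 (3.82%) higher and 302 (1.82%) lower. With the GC and length offsets, 2193 genes held as lower. For 427 genes (2.57%) the lowest entorhinal library lay above the highest hippocampal one, and for 200 genes (1.21%) the order was the opposite.

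**Figure D2:**
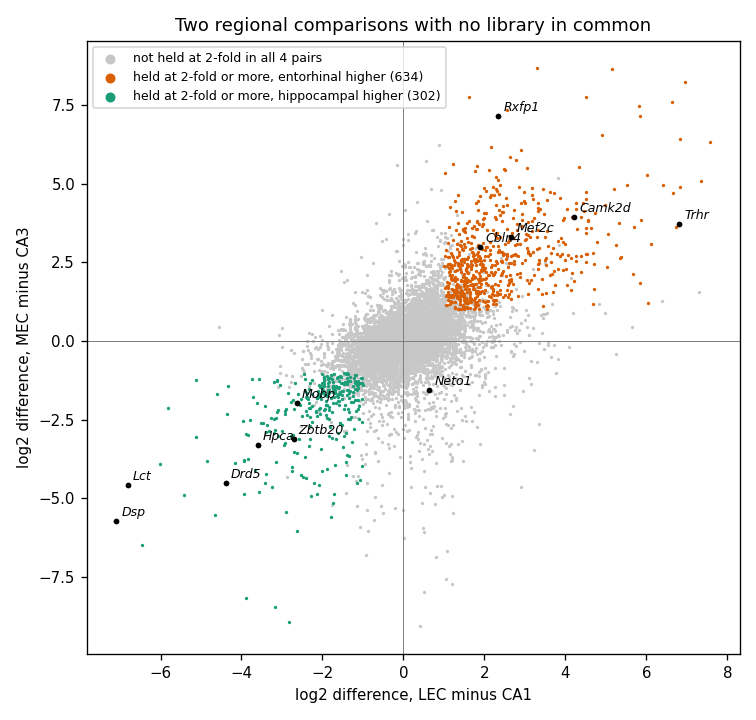
Log2 difference of each tested gene in MEC minus CA3 (vertical) and in LEC minus CA1 (horizontal), a pair of comparisons with no library in common. Coloured points are the 634 genes higher and the 302 genes lower in entorhinal cortex by at least 2-fold in all 4 pairs, and named points are genes given in the text.

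The genes that separated the regions most were the 15 in each direction with the largest smallest-of-4 difference among genes that held in all 4 pairs, averaged at least 10 CPM and did not overlap between the 18 entorhinal and 18 hippocampal libraries. CPM compares libraries for one gene and not genes with each other, since it is not scaled to transcript length. Values are given as the lowest, the median and the highest of the 18 libraries of a side, and differences as log2 entorhinal minus hippocampal with their standard error. This error is approximate, since it was computed back from the test as the absolute difference divided by the square root of the F statistic. Adjusted p for the 30 genes were at most 8.43e-14, the value for Dsp. Since the choice required sides that do not overlap, it fixes their direction in any subset of the libraries. The smallest difference within a condition was 3.28 (Ccn2, fear) among the entorhinal genes and -2.47 (Col11a1, fear) among the hippocampal genes.

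Trhr (ENSMUSG00000038760, chr15:44196135-44235912 of GRCm38), the receptor for thyrotropin-releasing hormone, had 5.70, 23.01 and 61.2 CPM in entorhinal libraries, against 0.0836, 0.449 and 2.03 CPM in hippocampal libraries (5.27 ± 0.26, adjusted p = 4.8e-19). Its entorhinal values were uneven, at 38.4 ± 13.3 CPM in LEC, 15.1 ± 6.57 CPM in MEC, 0.339 ± 0.214 CPM in CA1 and 1.08 ± 0.665 CPM in CA3 (SD, n = 9 each), so LEC stood above MEC and both above the hippocampal fields. Grm8, a presynaptic metabotropic glutamate receptor, had 19.1, 25.9 and 32.6 CPM in entorhinal libraries, against 0.113, 1.30 and 5.62 CPM in hippocampal libraries (3.91 ± 0.20), with a mean of 2.87 CPM in CA1 and 1.13 CPM in CA3.

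Camk2d (ENSMUSG00000053819, chr3:126596302-126846326), the delta subunit of calcium/calmodulin-dependent kinase II, had 269.9, 363 and 494 CPM in entorhinal libraries, against 14.5, 22.2 and 29.4 CPM in hippocampal libraries (4.08 ± 0.10, adjusted p = 5.86e-29). Its hippocampal means lay within 1 SD of each other, at 22.0 ± 3.92 CPM in CA1 and 21.4 ± 5.34 CPM in CA3 (SD, n = 9 each). Atp2b4, a calcium pump of the plasma membrane, had 481, 689 and 1116 CPM in entorhinal libraries, against 14.5, 32.4 and 61.6 CPM in hippocampal libraries (4.40 ± 0.14). Cobl, an actin nucleator, had 84.3, 147 and 173 CPM in entorhinal libraries, against 5.15, 8.36 and 16.2 CPM in hippocampal libraries (3.94 ± 0.12). Arhgap6, a GTPase-activating protein of small G proteins, had 11.1, 34.5 and 61.9 CPM in entorhinal libraries, against 0.638, 1.25 and 1.94 CPM in hippocampal libraries (4.65 ± 0.11), and Rasgef1c, of a Ras exchange factor family, had a log2 difference of 3.98 ± 0.16. Both had higher means in LEC than in MEC, with Arhgap6 at 45.9 ± 6.79 CPM in LEC and 22.2 ± 5.499 CPM in MEC (SD, n = 9 each).

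Bmp3, a ligand of the bone morphogenetic protein family, had 18.9, 25.7 and 34.0 CPM in entorhinal libraries, against 0.348, 1.34 and 2.02 CPM in hippocampal libraries (4.32 ± 0.13). Col23a1, a transmembrane collagen, had 22.99, 44.7 and 69.0 CPM in entorhinal libraries, against 1.36, 2.23 and 5.40 CPM in hippocampal libraries (4.22 ± 0.14). Dcn (decorin, a matrix proteoglycan) had 42.8, 104 and 301 CPM in entorhinal libraries, against 2.79, 5.32 and 27.9 CPM in hippocampal libraries (4.21 ± 0.20). The highest hippocampal value was a CA1 library. The summed CPM of meningeal and mural markers, a tissue in which decorin is known, was 149 to 316 CPM in entorhinal and 119 to 229 CPM in hippocampal libraries, and its part in this difference was not tested. Ccn2, a matricellular protein, differed by 4.11 ± 0.29. Ccn2 and Cplx3 (4.03 ± 0.16), a complexin of neurotransmitter release, are known as markers of the deepest cortical layer, 6b, in mouse. Ccn2 had 13.7, 41.2 and 58.3 CPM in entorhinal libraries, against 0.684, 1.68 and 10.1 CPM in hippocampal libraries, and Cplx3 had 11.6, 28.9 and 39.0 CPM in entorhinal libraries, against 0.599, 1.59 and 3.77 CPM in hippocampal libraries. Igfn1 (6.61 ± 0.22) had 17.9, 42.6 and 85.5 CPM in entorhinal libraries, against 0, 0.376 and 1.32 CPM in hippocampal libraries.

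On the hippocampal side, Hpca (ENSMUSG00000028785, chr4:129111570-129122036), the neuronal calcium sensor hippocalcin, had 110.4, 166 and 303 CPM in entorhinal libraries, against 1156, 1992 and 2683 CPM in hippocampal libraries (-3.46 ± 0.089, adjusted p = 6.51e-28). Zbtb20 (ENSMUSG00000022708, chr16:42875881-43642602), a BTB zinc finger transcription factor needed in mouse for the identity of hippocampal pyramidal neurons, had 53.0, 83.2 and 114 CPM in entorhinal libraries, against 454, 603 and 898 CPM in hippocampal libraries (-2.91 ± 0.079). Shisa6, an auxiliary protein of AMPA receptors, had 15.2, 26.9 and 62.7 CPM in entorhinal libraries, against 106, 301 and 518 CPM in hippocampal libraries (-3.40 ± 0.14).

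Dsp (ENSMUSG00000054889, chr13:38151294-38198577), the desmosomal protein desmoplakin, and Lct, lactase, differed by -6.41 ± 0.47 and -5.70 ± 0.20. Dsp had 0, 0.433 and 0.780 CPM in entorhinal libraries, against 0.851, 33.3 and 101 CPM in hippocampal libraries. The hippocampal values were uneven, from 0.851 to 100.9 CPM in CA1 and from 2.85 to 70.5 CPM in CA3, so that the lowest CA1 library stood only just above the highest entorhinal library. Lct had 0.561, 0.892 and 1.65 CPM in entorhinal libraries, against 7.01, 59.1 and 149.7 CPM in hippocampal libraries, with 117 ± 26.2 CPM in CA1 and 22.2 ± 11.6 CPM in CA3. Both stand on the list of dentate granule cell markers. The summed CPM of that list's 10 members was 150 to 273 in entorhinal libraries, against 202 to 1056 in CA1 and 121 to 468 in CA3 libraries. That sum holds Dsp and Lct themselves, and the part of these cells in the differences of Dsp and Lct was not tested. Pkp2, the desmosomal plakophilin 2, is not on that list and had 3.67, 5.97 and 11.4 CPM in entorhinal libraries, against 42.8, 64.6 and 93.0 CPM in hippocampal libraries (-3.38 ± 0.078).

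Of the other hippocampal genes, Olfml2b, a secreted protein with an olfactomedin domain, had 1.64, 4.09 and 7.57 CPM in entorhinal libraries, against 30.9, 58.6 and 102 CPM in hippocampal libraries (-3.88 ± 0.11). Lrrc10b, a leucine-rich repeat protein, had 1.53, 3.29 and 6.88 CPM in entorhinal libraries, against 57.1, 69.7 and 91.5 CPM in hippocampal libraries (-4.40 ± 0.12). Klk8, the secreted protease neuropsin, and Spink8, of the Kazal family of protease inhibitors, differed by -3.81 ± 0.16 and -4.18 ± 0.18. The transcription factors St18 and Onecut2 differed by -3.82 ± 0.15 and -3.14 ± 0.10, with St18 at 94.99 ± 28.6 CPM in CA3 and 39.1 ± 12.1 CPM in CA1 (SD, n = 9 each). Col11a1, a fibrillar collagen, differed by -3.09 ± 0.17, Itga7, an integrin subunit for laminin, by -3.03 ± 0.14, and Rasd1, a Ras-related protein induced by glucocorticoids, by -3.25 ± 0.13.

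**Figure D3:**
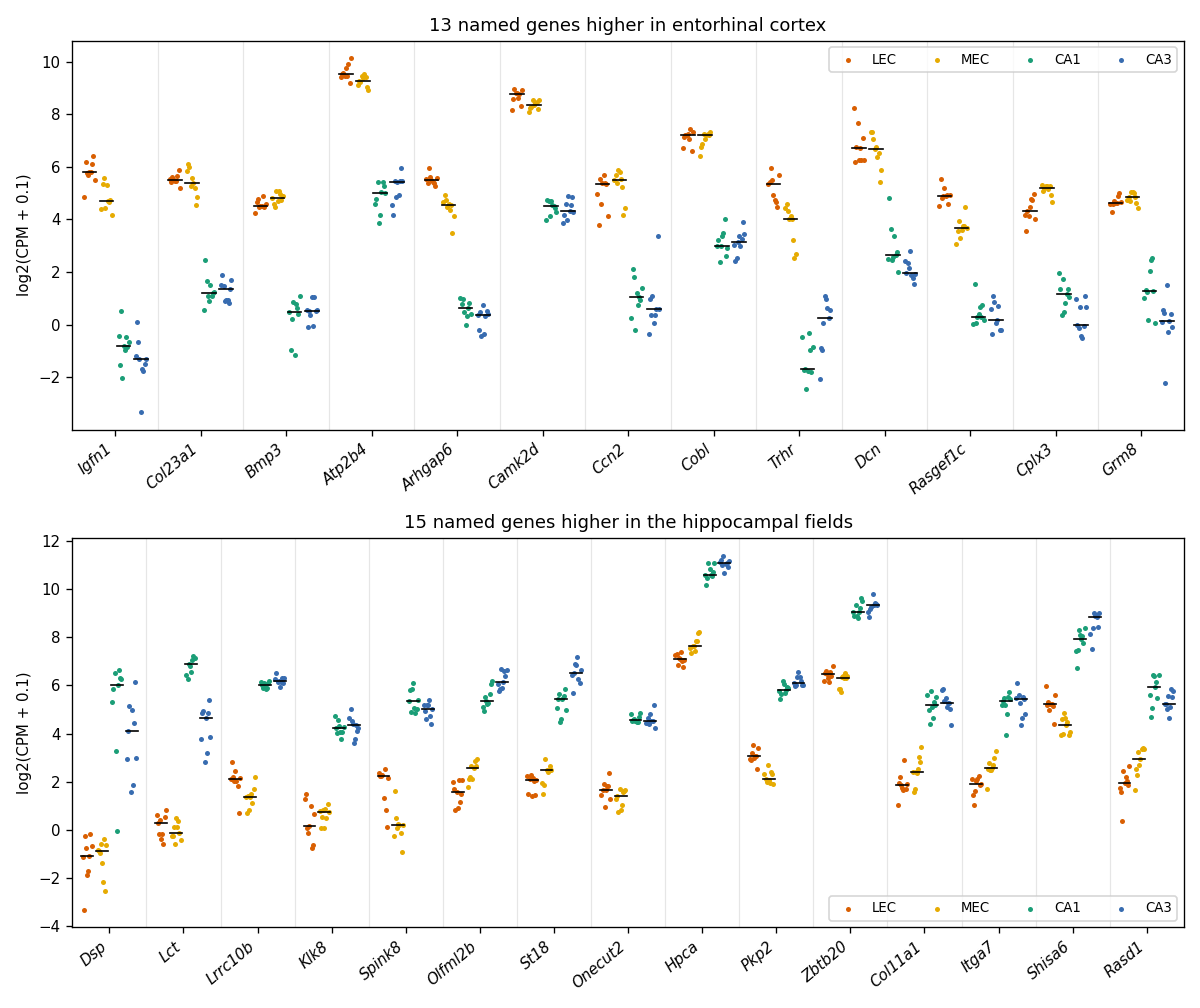
Log2(CPM + 0.1) of 13 named genes higher in entorhinal cortex (top) and the 15 higher in the hippocampal fields (bottom), one point per library, coloured by region, with the median of each region as a bar. The genes were chosen for sides that do not overlap, and for Dsp a single CA1 library at 0.851 CPM lies next to the entorhinal points.

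The promoters of the named genes were searched on both strands for letter patterns based on the binding motifs of factors that themselves differed between the regions: MEF2 (CTANNNNTAG), NeuroD (CAGATG) and NFI (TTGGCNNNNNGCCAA). N stands for any base, so the MEF2 pattern is looser than the known motif, whose middle holds only A or T. RefSeq promoters of GRCm38.p6, from 250 bases before to 50 after the start, were listed for 9 of the 15 entorhinal and 8 of the 15 hippocampal genes, and both promoters with a match are shown with the matching letters in capitals. Arhgap6 holds a match to the MEF2 pattern that begins 8 bases before 1 of its 3 listed starts and runs across it (chrX:169112628-169112927, plus strand). The middle of this match is GCAT, so it is not the A/T-only motif. Olfml2b holds the NeuroD letters 216 bases before its start (chr1:170644282-170644581, plus strand).
Arhgap6: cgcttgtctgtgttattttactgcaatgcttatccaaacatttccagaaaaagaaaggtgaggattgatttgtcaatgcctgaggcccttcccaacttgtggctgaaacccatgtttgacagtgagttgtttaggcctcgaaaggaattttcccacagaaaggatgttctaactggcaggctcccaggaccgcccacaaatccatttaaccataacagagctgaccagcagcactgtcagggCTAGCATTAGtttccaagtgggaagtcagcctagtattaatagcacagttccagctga
Olfml2b: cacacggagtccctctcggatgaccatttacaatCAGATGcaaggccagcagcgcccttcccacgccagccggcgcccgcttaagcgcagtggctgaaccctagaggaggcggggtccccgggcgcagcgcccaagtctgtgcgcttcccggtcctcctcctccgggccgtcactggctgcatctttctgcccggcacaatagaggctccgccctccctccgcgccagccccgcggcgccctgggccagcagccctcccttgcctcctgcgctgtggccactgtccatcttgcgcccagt
A match is a run of letters and not a measured binding site. The MEF2 letters were in 4.3% of the 582 promoters of genes at least 2-fold higher in entorhinal cortex in all 4 pairs and in 2.78% of the 288 promoters of the corresponding hippocampal genes, against 3.69% of all 32851 promoters. For the NeuroD letters the shares were 17.5%, 19.8% and 17.2%, and the NFI letters were in 2, 1 and 12 promoters of these sets.

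Transcription factors of cortical layers were mostly higher in entorhinal cortex. Of 28 tested, 19 were higher and 7 lower, 9 and 1 of them in all 4 pairs, and the median log2 difference of the list was 0.65, against -0.010 over all genes tested. Over all genes tested 26.5% were higher and 25.4% lower, 10.2% and 7.68% in all 4 pairs, and these shares are the background of the counts of every list. Mef2c, a MADS-box factor of excitatory neurons, had 466, 771 and 935 CPM in entorhinal libraries, against 49.3, 84.4 and 176 CPM in hippocampal libraries (2.98 ± 0.12). Tbr1, which specifies deep-layer corticothalamic neurons, had 57.8, 93.9 and 124 CPM in entorhinal libraries, against 15.6, 28.5 and 46.8 CPM in hippocampal libraries (1.69 ± 0.10), and Cux2, of upper-layer neurons, had 22.0, 48.5 and 96.6 CPM in entorhinal libraries, against 6.999, 11.03 and 17.3 CPM in hippocampal libraries (2.19 ± 0.10). None of these 3 overlapped between the sides. Tshz3 (2.45 ± 0.079), Foxp2 (2.81 ± 0.22) and Nr2f2 (2.29 ± 0.11) also held in all 4 pairs. Nr2f2, an orphan nuclear receptor, averaged 66.6 CPM in LEC and 29.4 CPM in MEC. Tshz2 (2.71 ± 0.31) was called overall but LEC did not differ from CA1 beyond the threshold, at 24.8 ± 9.51 CPM in LEC, 162 ± 23.3 CPM in MEC, 27.4 ± 24.9 CPM in CA1 and 3.38 ± 1.01 CPM in CA3 (SD, n = 9 each). Pou3f1, known from CA1 and upper cortical layers, was the member that held as lower (-2.89 ± 0.26).

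Factors of hippocampal development and identity went mostly the other way, with 6 of 25 higher and 16 lower in entorhinal cortex, 3 and 10 in all 4 pairs, and a median of -0.42. Besides Zbtb20, Nr3c2, the mineralocorticoid receptor, had 29.7, 42.4 and 77.1 CPM in entorhinal libraries, against 144, 275 and 415 CPM in hippocampal libraries (-2.51 ± 0.10). Neurod6 and Neurod2, basic helix-loop-helix factors of pyramidal neurons, differed by -2.18 ± 0.091 and -1.37 ± 0.085, and Zeb2, a zinc finger factor, by -1.85 ± 0.076. The sides did not overlap for Nr3c2, Neurod6, Neurod2 or Zeb2. Dmrt3 (-3.86 ± 0.42) was at the edge of detection, with a highest value of 0.160 CPM in entorhinal and 2.11 CPM in hippocampal libraries, and Lhx9 (-3.47 ± 0.28) was mainly a CA3 signal at 31.5 CPM, against 5.11 CPM in CA1. Meis2 (1.27 ± 0.11), Zic1 (1.42 ± 0.16) and Lhx2 (0.43 ± 0.081) held as higher in entorhinal cortex.

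**Figure D4:**
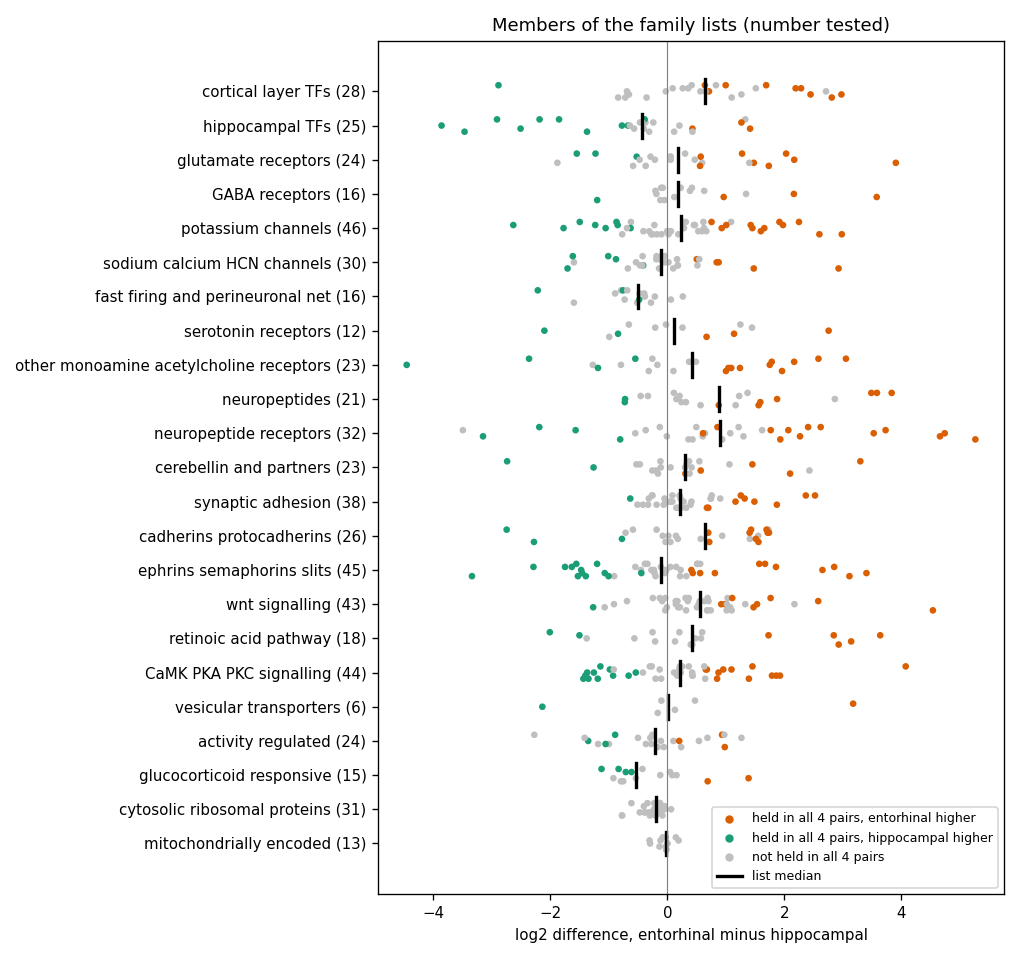
Log2 entorhinal minus hippocampal difference of each tested member of the 23 family lists (horizontal), with the list median as a bar and the number tested in brackets. Coloured members held in all 4 pairs; neuropeptides and their receptors have medians of 0.88 and 0.90, and no ribosomal or mitochondrial gene is coloured.

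Ionotropic and metabotropic glutamate receptors divided between the sides. Of 24 members, 12 were higher and 8 lower in entorhinal cortex, 8 and 3 in all 4 pairs (median 0.18). The AMPA receptor subunit Gria1 had 374, 487 and 782 CPM in entorhinal libraries, against 1013, 1539 and 2160 CPM in hippocampal libraries (-1.55 ± 0.074). Gria4, an AMPA subunit with fast kinetics, showed the reverse, with 117, 189 and 243 CPM in entorhinal libraries, against 51.8, 60.5 and 97.1 CPM in hippocampal libraries (1.48 ± 0.063), and neither gene overlapped between the sides. The NMDA receptor subunit Grin3a (1.74 ± 0.08) and the kainate receptor subunits Grik3 (2.17 ± 0.11) and Grik1 (1.28 ± 0.11) were higher, as was Grm4 (2.03 ± 0.16). Grin2a (-1.23 ± 0.12) and Gria2 (-0.52 ± 0.069) were lower. Grik4, a kainate subunit of mossy fibre synapses, was lower overall (-1.88 ± 0.14) but MEC minus CA1 did not pass (-0.38, adjusted p = 0.117), at 11.9 ± 2.58 CPM in LEC, 17.0 ± 2.83 CPM in MEC, 22.9 ± 12.7 CPM in CA1 and 124 ± 24.5 CPM in CA3 (SD, n = 9 each). Among 16 GABA receptor genes, 8 were higher and 3 lower, 3 and 1 in all 4 pairs (median 0.18), so 68.8% were called, against 51.9% of all genes tested, and the share lower was below the 25.4% of all genes. The GABA-A alpha subunits Gabra3 and Gabra5 lay on opposite sides. Gabra3 had 138, 241 and 369.5 CPM in entorhinal libraries, against 29.8, 54.0 and 85.9 CPM in hippocampal libraries (2.17 ± 0.095), while Gabra5, of extrasynaptic hippocampal receptors, had 93.1, 132 and 192 CPM in entorhinal libraries, against 233, 308 and 390.3 CPM in hippocampal libraries (-1.20 ± 0.059). Gabrq (3.58 ± 0.33) and Gabrg1 (0.97 ± 0.081) were higher in entorhinal cortex.

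Voltage-gated and related channels were also split. Of 46 potassium channel genes 24 were higher and 15 lower in entorhinal cortex, 12 and 8 in all 4 pairs (median 0.23). Kcnf1, a modulatory subunit of Kv2 channels, had 131, 177 and 272 CPM in entorhinal libraries, against 7.18, 23.9 and 46.2 CPM in hippocampal libraries (2.98 ± 0.14). Kcng1, another such subunit, was higher (2.25 ± 0.22), while its relatives Kcng2 (-2.63 ± 0.18) and Kcng4 (-1.77 ± 0.16) were lower. Kcnc4, of the Kv3 genes, was higher (1.98 ± 0.13). Kcnt1, a sodium-activated channel, was higher (1.60 ± 0.10), and Kcnd2, which carries dendritic A-type current, was lower (-1.05 ± 0.083). Kcna5 was higher (2.60 ± 0.27) at 1.24 to 6.26 CPM in entorhinal and 0 to 2.42 CPM in hippocampal libraries. Of 30 sodium, calcium and HCN channel genes, 8 were higher and 12 lower, 5 and 5 in all 4 pairs (median -0.12). Hcn4, a pacemaker channel, had 1.91, 3.31 and 6.00 CPM in entorhinal libraries, against 0.122, 0.430 and 0.916 CPM in hippocampal libraries (2.93 ± 0.19). The AMPA receptor regulators Cacng3 and Cacng8 differed by 1.48 ± 0.085 and -1.61 ± 0.18, and Cacna1h, a T-type calcium channel, by -1.71 ± 0.14. Of 16 genes of fast firing and perineuronal nets 1 was higher and 13 were lower (median -0.50), but only Hapln2 (-2.21 ± 0.24), Acan (-0.76 ± 0.15; -0.37, adjusted p = 0.161, in context libraries alone) and Vcan (-0.48 ± 0.063) held in all 4 pairs.

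Receptors of neuromodulators held in both directions. Of 23 dopamine, adrenergic, acetylcholine and histamine receptor genes 12 were higher and 6 lower in entorhinal cortex, 10 and 4 in all 4 pairs (median 0.42). The D1-class dopamine receptors Drd1 and Drd5, both coupled to adenylyl cyclase, were on opposite sides. Drd1 had 12.2, 19.2 and 33.1 CPM in entorhinal libraries, against 0.359, 1.96 and 7.36 CPM in hippocampal libraries (3.06 ± 0.21), and Drd5 had 0.142, 0.513 and 3.47 CPM in entorhinal libraries, against 8.73, 16.8 and 28.8 CPM in hippocampal libraries (-4.46 ± 0.26), each without overlap. Drd1 stands on the list of striatal markers. With Drd1 included, their summed CPM was 80.0 to 134 CPM in entorhinal and 24.9 to 59.0 CPM in hippocampal libraries. Of the list's 7 members tested, 5 were higher and 0 lower. The receptors Drd2 (0.42 ± 0.22) and Adora2a (-0.33 ± 0.21) were the 2 not called. The part of striatal tissue in the Drd1 difference was not tested. Histamine receptor Hrh1 had 15.8, 21.9 and 29.2 CPM in entorhinal libraries, against 2.21, 3.93 and 5.19 CPM in hippocampal libraries (2.58 ± 0.09), and Hrh3 (1.75 ± 0.17) was also higher. Adrenergic receptors Adra2a (2.17 ± 0.094), Adra1b (1.96 ± 0.17), Adra1a (1.09 ± 0.094) and Adrb1 (1.04 ± 0.09) were higher, and Adra1d was lower (-2.36 ± 0.21). Among cholinergic receptors Chrna4 (1.79 ± 0.10) and Chrm4 (1.24 ± 0.14) were higher, while Chrna7 (-1.18 ± 0.094) and Chrm1 (-0.55 ± 0.079) were lower. Of 12 serotonin receptors 5 were higher and 4 lower, 3 and 2 in all 4 pairs. The list median of 0.12 fell to 0.0092 with the GC and length offsets. Htr4 had 1.86, 5.03 and 8.32 CPM in entorhinal libraries, against 10.7, 18.9 and 25.6 CPM in hippocampal libraries (-2.10 ± 0.13), and Htr5a (1.14 ± 0.082), Htr2a (0.67 ± 0.11) and the sparsely counted Htr1d (2.76 ± 0.42) were higher.

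Neuropeptides and their receptors were higher in entorhinal cortex more often than lower. For the peptides 12 of 21 were higher and 3 lower, 7 and 2 in all 4 pairs (median 0.88). For the receptors 23 of 32 were higher and 6 lower, 13 and 4 in all 4 pairs (median 0.90). Trh, the ligand of Trhr, was higher (3.84 ± 0.37), at 28.8 ± 20.7 CPM in LEC, 1.18 ± 0.483 CPM in MEC, 0.473 ± 0.261 CPM in CA1 and 0.334 ± 0.257 CPM in CA3 (SD, n = 9 each). LEC libraries ranged from 0.305 to 60.7 CPM, so the lowest of them lay within the hippocampal range. Vip had 32.2, 39.97 and 57.0 CPM in entorhinal libraries, against 5.64, 9.73 and 23.3 CPM in hippocampal libraries (1.88 ± 0.10). Interneuron markers, Vip included, summed to 668 to 938 CPM in entorhinal and 439.5 to 851 CPM in hippocampal libraries. The part of these cells in the Vip difference was not tested. Adcyap1 (PACAP) was higher (3.49 ± 0.29) and so was its receptor Adcyap1r1 (0.86 ± 0.059). Among other peptides Nxph3, a neurexophilin that binds neurexins (3.58 ± 0.34), Tac1 (1.59 ± 0.12) and Tac2 (1.56 ± 0.13) were higher, and Cck was lower (-0.72 ± 0.14). Its receptor Cckbr had 27.1, 37.5 and 51.9 CPM in entorhinal libraries, against 1.04, 3.31 and 6.22 CPM in hippocampal libraries (3.53 ± 0.13), so ligand and receptor lay on opposite sides. Rxfp1, the relaxin receptor, had 8.65, 34.5 and 73.8 CPM in entorhinal libraries, against 0, 0.579 and 7.94 CPM in hippocampal libraries (4.74 ± 0.36), with MEC at 54.7 and LEC at 17.3 CPM on average. It stands on the list of subiculum markers, and so does Slc17a6. With both included, the summed CPM of these markers was 144 to 361 in entorhinal and 35.1 to 110 in hippocampal libraries. Their median sum was 311 CPM in MEC and 175 CPM in LEC, and their part in this difference was not tested. Tacr3 (4.66 ± 0.34), Ntsr1 (2.62 ± 0.17), Sstr1 (2.27 ± 0.15), Sstr2 (1.93 ± 0.15) and Nmbr (2.07 ± 0.20) were also higher. Npy2r, a presynaptic receptor of neuropeptide Y, had 3.06, 6.13 and 43.9 CPM in entorhinal libraries, against 24.1, 83.6 and 230.2 CPM in hippocampal libraries (-3.15 ± 0.16), and Sstr4 (-1.57 ± 0.11) and Mc4r (-2.19 ± 0.21) were lower too.

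Kinases and second messenger enzymes had family members on both sides. Of 44 tested, 23 were higher and 16 lower, 12 and 11 in all 4 pairs (median 0.21). Of the 4 genes for subunits of calcium/calmodulin-dependent kinase II, Camk2d and Camk2g (0.68 ± 0.056) were higher and Camk2a and Camk2b lower in entorhinal cortex. Camk2a had 1937, 2696 and 4573 CPM in entorhinal libraries, against 3820, 5221 and 6937 CPM in hippocampal libraries (-0.93 ± 0.07), and Camk2b had 344, 522 and 647 CPM in entorhinal libraries, against 814, 1261 and 1803 CPM in hippocampal libraries (-1.35 ± 0.077). The kinase's endogenous inhibitors Camk2n1 (0.88 ± 0.08) and Camk2n2 (1.79 ± 0.069) were higher. Protein kinase A subunits Prkacb (1.40 ± 0.059) and Prkar2b (1.93 ± 0.091) were higher, with Prkacb at 573, 673 and 834 CPM in entorhinal libraries, against 177, 265 and 347 CPM in hippocampal libraries. Prkca (-1.43 ± 0.10) of protein kinase C, the calcineurin subunit Ppp3ca (-1.40 ± 0.072) and the calmodulin-binding Nrgn (-1.25 ± 0.15) were lower. Adenylyl cyclases were split, with Adcy8 higher (1.86 ± 0.091) and Adcy9 lower (-1.19 ± 0.12).

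The cerebellin list holds secreted synaptic organizers of the C1q family with their receptors, and Cbln4 and Neo1 (neogenin 1) are named in the title of the study. Of 23 members 12 were higher and 5 lower in entorhinal cortex, 5 and 2 in all 4 pairs (median 0.31). Cbln4 was higher on average (2.43 ± 0.13) but did not hold, as LEC did not pass against CA3 (0.29 ± 0.17, adjusted p = 0.192), and its differences were 1.89 for LEC minus CA1, 0.29 for LEC minus CA3, 4.57 for MEC minus CA1 and 2.97 for MEC minus CA3. Neo1 held in all 4 pairs with a small difference (0.31 ± 0.046) and overlapping sides. Cbln1 had 5.18, 21.1 and 54.0 CPM in entorhinal libraries, against 0.942, 1.61 and 2.85 CPM in hippocampal libraries (3.30 ± 0.14), with means of 38.1 CPM in MEC and 8.44 CPM in LEC and no overlap with the hippocampal fields. Cbln2 (1.46 ± 0.14) and the netrin receptor Unc5d (2.10 ± 0.13) were higher, and C1ql2 (-2.74 ± 0.41), which is also on the dentate granule list and did not pass in context libraries alone (-1.49, adjusted p = 0.134), and Unc5b (-1.26 ± 0.14) were lower.

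Adhesion molecules were more often higher in entorhinal cortex. Of 38 other synaptic adhesion genes 21 were higher and 5 lower, 9 and 1 in all 4 pairs (median 0.22). Ntng1, a netrin-G that binds Lrrc4c on the opposite membrane, had 35.5, 113 and 140.1 CPM in entorhinal libraries, against 8.12, 16.7 and 30.7 CPM in hippocampal libraries (2.53 ± 0.14), and Lrrc4c was higher by 0.70 ± 0.069. Lrrtm3 (2.37 ± 0.10), a neurexin ligand, and Tenm1 (1.87 ± 0.12), a teneurin, were higher, and Slitrk3 was lower (-0.63 ± 0.065). Of 26 cadherins and protocadherins 14 were higher and 6 lower, 9 and 3 in all 4 pairs (median 0.64). Pcdh20 had 19.1, 26.5 and 61.0 CPM in entorhinal libraries, against 135, 204 and 353 CPM in hippocampal libraries (-2.75 ± 0.11) and Cdh24 was lower as well (-2.28 ± 0.11), while Pcdh15 (1.74 ± 0.084), Cdh18 (1.72 ± 0.10) and Cdh13 (1.70 ± 0.10) were higher, all without overlap.

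Axon guidance genes were found on both sides. Their summed CPM had a median of 2594 in entorhinal and 3970 in hippocampal libraries (2159 to 3055 and 2498 to 4969). Of 45 ephrin, semaphorin, plexin, slit and robo genes 17 were higher and 21 lower, 11 and 13 in all 4 pairs (median -0.11). Secreted semaphorins showed both directions, with Sema3a at 17.3, 40.2 and 60.9 CPM in entorhinal libraries, against 0.257, 5.00 and 18.6 CPM in hippocampal libraries (3.41 ± 0.17) and Sema3e at 10.9, 27.6 and 43.9 CPM in entorhinal libraries, against 42.9, 132 and 184 CPM in hippocampal libraries (-2.29 ± 0.14). Plxnd1, the receptor of Sema3e, was higher where its ligand was lower (2.85 ± 0.17). Nrp1, which binds Sema3a, was lower (-1.47 ± 0.088). The ephrin ligands Efna5 (3.12 ± 0.29) and Efnb2 (1.86 ± 0.12) were higher, and the receptors Epha4 (-1.75 ± 0.093), Epha6 (-1.46 ± 0.12) and Epha7 (-1.53 ± 0.075) were lower. Robo3, of the Robo receptor family, had 0.821, 3.71 and 12.7 CPM in entorhinal libraries, against 14.0, 40.9 and 75.1 CPM in hippocampal libraries (-3.34 ± 0.19).

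In the Wnt pathway 25 of 43 genes were higher and 4 lower, 8 and 1 in all 4 pairs (median 0.56). Dkkl1, a relative of the Dickkopf inhibitors, had 3.07, 6.04 and 11.8 CPM in entorhinal libraries, against 0, 0.219 and 0.957 CPM in hippocampal libraries (4.54 ± 0.28), while Dkk3 was lower (-1.27 ± 0.076). The ligand Wnt4 (1.48 ± 0.10), the secreted enhancer Rspo2 (2.58 ± 0.15) and the secreted inhibitor Sfrp1 (1.77 ± 0.10) were higher. In the retinoic acid pathway 9 of 18 were higher and 6 lower, 5 and 2 in all 4 pairs (median 0.41). The nuclear receptor Rxrg had 4.60, 9.78 and 18.1 CPM in entorhinal libraries, against 0.204, 0.706 and 2.51 CPM in hippocampal libraries (3.64 ± 0.19), and Rara was lower (-1.50 ± 0.20). The synthesizing enzyme Aldh1a2 (2.85 ± 0.23) and the binding protein Crabp2 (3.14 ± 0.23) were higher. Both are known from the meninges, whose marker sums are given with Dcn, and their part here was not tested. Aldh1a1 had 15.7, 28.3 and 51.5 CPM in entorhinal libraries, against 76.7, 111 and 272 CPM in hippocampal libraries (-2.01 ± 0.11). Of the 6 vesicular transporters tested, 2 were higher and 1 lower, a share called of 50%, near the 51.9% of all genes tested. The glutamate transporter Slc17a6 held as higher (3.18 ± 0.20) and Slc17a8 as lower (-2.14 ± 0.15), with Slc17a6 at 31.2 ± 4.65 CPM in LEC, 54.4 ± 7.69 CPM in MEC, 15.4 ± 9.95 CPM in CA1 and 1.35 ± 0.444 CPM in CA3 (SD, n = 9 each). Slc17a6 is also on the subiculum list, whose sums are given with Rxfp1, and the part of that tissue here was not tested.

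Of 24 activity-regulated genes 7 were higher and 8 lower, 3 and 3 in all 4 pairs (median -0.21). The share called, 62.5%, was near the 51.9% of all genes tested, and the list did not lean to a side. Fos (0.94 ± 0.15) and Dusp1 (0.98 ± 0.087) were higher in entorhinal cortex, and Nr4a3 (-1.35 ± 0.10), Bdnf (-1.05 ± 0.085) and Dusp4 (-0.89 ± 0.091) were lower. Bdnf had 19.1, 29.2 and 48.8 CPM in entorhinal libraries, against 37.2, 56.0 and 86.8 CPM in hippocampal libraries. Of 15 glucocorticoid-responsive genes 2 were higher and 9 lower, 2 and 4 in all 4 pairs (median -0.54). Sgk1 (-1.12 ± 0.10), Errfi1 (-0.83 ± 0.074), Fkbp5 (-0.71 ± 0.069) and Ddit4 (-0.61 ± 0.078) were lower, and Cdkn1a was higher (1.39 ± 0.13). Of 31 cytosolic ribosomal protein genes 13 were lower in entorhinal cortex, and none held in all 4 pairs (median -0.19), so 41.9% were called, against 51.9% of all genes tested in either direction and 25.4% as lower. Of 13 mitochondrially encoded genes edgeR's test called 0, with 1 at an unadjusted p under 0.05 and 1 called by DESeq2 (median -0.026), and their summed CPM was 39210 to 96740 CPM in entorhinal and 44340 to 97330 CPM in hippocampal libraries.

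An average over regions can hide genes that sit between the fields. Both entorhinal regions were above CA1 and below CA3 for 63 genes (0.38%), and above CA3 and below CA1 for 20 (0.121%). Neto1, an auxiliary subunit of kainate and NMDA receptors, had 74.2 ± 8.39 CPM in LEC, 75.7 ± 9.14 CPM in MEC, 48.0 ± 15.8 CPM in CA1 and 225 ± 64.3 CPM in CA3 (SD, n = 9 each), and its differences were 0.64 for LEC minus CA1, -1.58 for LEC minus CA3, 0.66 for MEC minus CA1 and -1.56 for MEC minus CA3. Slit2, a secreted guidance cue, differed by 1.93 for LEC minus CA1, -0.93 for LEC minus CA3, 1.96 for MEC minus CA1 and -0.90 for MEC minus CA3. Spock1, Elavl2 and Mgat4c had the same order. In the opposite order stood Bhlhe40, a transcriptional repressor, at -0.71 for LEC minus CA1, 0.67 for LEC minus CA3, -0.72 for MEC minus CA1 and 0.67 for MEC minus CA3, with Kcnh7, Net1, Ppp1r1a and Bcr. LEC lay above and MEC below both fields for 12 genes (0.0723%), led by Pcdh8, a protocadherin, at 37.9 ± 9.49 CPM in LEC, 11.2 ± 2.87 CPM in MEC, 21.1 ± 7.26 CPM in CA1 and 23.01 ± 4.33 CPM in CA3 (SD, n = 9 each), and including Ptpro, Abca8a, Itga4 and Ap1s2. Syt2, a fast calcium sensor of release, was the 1 gene (0.00603%) with MEC above and LEC below both fields, at 6.08 ± 2.71 CPM in LEC, 49.3 ± 26.0 CPM in MEC, 26.8 ± 16.9 CPM in CA1 and 23.3 ± 7.85 CPM in CA3 (SD, n = 9 each). With home cage libraries alone the 4 counts were 0, 0, 3 and 0, with fear libraries alone 14, 2, 4 and 6, and without those 4 hippocampal libraries (context 2 and home cage 2) the first pair was 97 and 33.

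The regional difference was tested for dependence on behaviour in a fit of the 12 group means. No gene was called by edgeR's test of interaction (0%), and the smallest adjusted p was 0.198. An unadjusted p under 0.05 in this test was found for 2271 genes (13.7%), where chance alone gives a share of about 0.05. This count varied with the libraries used. It was 1083 of 16781 genes tested once the 4 outlying hippocampal libraries named above were set aside. With 1 library left out it ran from 1328 (CA3 home cage 2) to 3273 (CA3 context 1). With a replicate block 4 genes were called, among them Sec14l5, Zfp804a and Thsd4. Leaving out single libraries gave Kcng1 without CA1 context 3, Tmem215 without CA1 fear 1, and Lgals12 and Hr without CA3 context 1. The lowest unadjusted p belonged to Hr, whose difference was -1.16 in home cage, 0.19 in context and -0.12 in fear libraries, and Rnf182, at -1.30 in home cage, -1.91 in context and -2.14 in fear libraries. Trhr, with 6.47 in home cage, 5.13 in context and 4.54 in fear libraries, had an adjusted p of 0.213 for this test. Of the 634 and 302 genes that held with at least 2-fold in all 4 pairs, 603 and 280 also differed by at least 2-fold within each condition, in the same libraries that chose them.

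The labels were set against marker genes of the regions. Fibcd1, a marker of CA1 pyramidal cells, had 27.7 ± 26.2 CPM in LEC, 31.6 ± 12.2 CPM in MEC, 256 ± 103 CPM in CA1 and 80.4 ± 43.3 CPM in CA3 (SD, n = 9 each), and Grik4, given above, was highest in CA3. Homer3, on the CA3 list, had 1.60, 2.38 and 4.17 CPM in entorhinal libraries, against 9.51, 26.1 and 58.1 CPM in hippocampal libraries (-3.44 ± 0.12). Reln, expressed by entorhinal layer 2 cells that project to the dentate gyrus, had 130.0, 279.5 and 416 CPM in entorhinal libraries, against 25.5, 53.9 and 111 CPM in hippocampal libraries (2.26 ± 0.10). On the CA1 list 7 of 10 members were lower and 2 higher in entorhinal cortex, where Ccn3 (2.80 ± 0.18) held as higher and Wfs1 did not pass (0.34 ± 0.19, adjusted p = 0.143). The list summed to 743 to 2118 CPM in CA1, 449 to 767 CPM in CA3 and 833 to 1372 CPM in entorhinal libraries. CA1 home cage 2 (743 CPM) and home cage 3 (817 CPM) lay below every entorhinal library. The CA3 list summed to 156 to 484 CPM in CA1 and 720 to 1205 CPM in CA3 libraries. On the CA3 list 9 of 10 were lower and 1 (Coch) higher, and on the CA2 list 4 of 9 were lower and 4 higher. For the entorhinal list 8 of 10 were higher and 1 lower, for neocortical layers 7 of 10 and 1, and for the subiculum 6 of 8 and 1. No listed gene was at 0 in every library of either side.

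Oligodendrocyte genes were lower in entorhinal cortex as a group. All 12 members were lower in all 4 pairs, 11 by at least 2-fold in each (median -1.87). Mbp, a myelin protein, had 329.8, 668 and 1311 CPM in entorhinal libraries, against 1248, 2521 and 6104 CPM in hippocampal libraries (-2.09 ± 0.16), and Mobp had 133, 209.9 and 492 CPM in entorhinal libraries, against 633, 1165 and 2519 CPM in hippocampal libraries (-2.31 ± 0.15). The summed CPM of the list was 1244 to 3576 CPM in entorhinal and 3909 to 13250 CPM in hippocampal libraries, lowest in LEC and highest in CA3 by median. Hapln2, named above, is a matrix protein made by oligodendrocytes, and the part of these cells in the other hippocampal differences was not tested. Of 5 precursor markers 2 were higher and 2 lower (summed 168 to 272 CPM in entorhinal and 124 to 278 CPM in hippocampal libraries). Of 11 astrocyte markers 2 were higher and 2 lower, with Gfap at -1.01 ± 0.082. Their median of 0.091 turned to -0.027 with the GC and length offsets, and their summed CPM was 5595 to 7385 CPM in entorhinal and 5011 to 7492 CPM in hippocampal libraries. Of 11 microglial markers edgeR's test called 0, with 1 at an unadjusted p under 0.05 and 1 called by DESeq2 (summed 323 to 521 CPM in entorhinal and 278 to 553 CPM in hippocampal libraries).

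**Figure D5:**
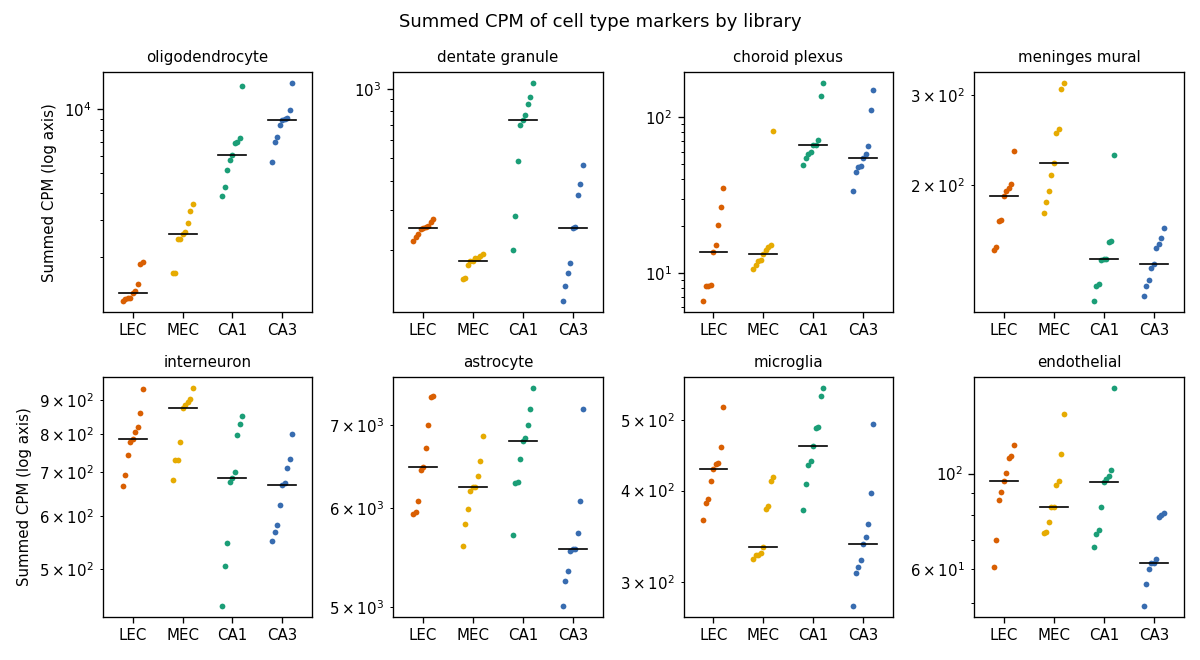
Summed CPM (log axis, range set for each panel) of 8 cell type marker lists, one point per library ordered by value within a region, with the median as a bar. Oligodendrocyte markers do not overlap between entorhinal and hippocampal libraries, while astrocyte and microglial markers do.

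Dentate granule markers were lower in entorhinal cortex for 8 of 10 members and higher for 0, 5 of them in all 4 pairs. Prox1, the granule cell transcription factor, had 12.7 ± 2.12 CPM in LEC, 11.8 ± 2.02 CPM in MEC, 112 ± 58.1 CPM in CA1 and 54.5 ± 30.0 CPM in CA3 (SD, n = 9 each), with the highest mean in the CA1 dissections. Of 8 choroid plexus markers 6 were lower and 1, Kcnj13, higher (summed 6.61 to 81.5 CPM in entorhinal and 33.5 to 165 CPM in hippocampal libraries). Kl, the klotho gene, had 1.34, 4.32 and 7.02 CPM in entorhinal libraries, against 17.5, 34.0 and 53.3 CPM in hippocampal libraries (-3.14 ± 0.12), while Ttr, at 0.030 to 61.8 CPM in entorhinal and 2.67 to 103.7 CPM in hippocampal libraries, varied within every region. Of 11 meningeal and mural markers 8 were higher and 0 lower (median 0.86), with Slc6a20a at 2.19 ± 0.15 and Col1a2 at 2.10 ± 0.16. Of 8 endothelial markers 3 were higher, 37.5% against 26.5% of all genes (summed 60.9 to 137 CPM in entorhinal and 49.4 to 158 CPM in hippocampal libraries) and of 5 blood markers 1 was (summed 12.8 to 94.2 CPM in entorhinal and 10.03 to 79.3 CPM in hippocampal libraries). Of 15 interneuron markers 7 were higher, 2 lower and 6 not called, and their sums, given with Vip, overlapped between the sides. Gad1 was higher by 0.32 ± 0.064, and Lhx6 (0.59 ± 0.063), Dlx6 (0.76 ± 0.12) and Vip were among those that held in all 4 pairs. Markers of neighbouring structures included 5 of 7 striatal genes higher and 0 lower, with Drd1 and Gpr6 among those holding in all 4 pairs. Of 8 thalamic markers 4 were higher and 2 lower (summed 105 to 232 CPM in entorhinal and 84.4 to 165 CPM in hippocampal libraries).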

How the data were processed

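Polyadenylated RNA was sequenced from 36 dissected tissue samples (TRIzol extraction and a stranded mRNA kit, per the labels' protocols). The authors deposited raw counts per gene, made with Trimmomatic 0.33, STAR 2.7.10b and HTSeq 2.0.1 on mm10, per the submitters' processing notes. For strand setting and annotation release the sources used here give nothing, so overlapping or antisense genes and close copies stay uncertain. The 36 single-sample files equal the columns of the table, every line has a gene ID, and 35449 of 37315 genes (95%) matched a symbol. Those without one held 0.208% of counts.

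From these counts 16594 genes passed edgeR 4.0.16's filter and were TMM-scaled. A quasi-likelihood model with a term per region and per condition gave (LEC + MEC)/2 minus (CA1 + CA3)/2 and the 4 pairs, with Benjamini-Hochberg adjustment over all genes and a threshold of 0.05. Named genes were the 15 per direction with the largest smallest-of-4 difference at a mean of at least 10 CPM without overlap, the 5 leading genes of each opposite order, the 4 members of largest difference that held in each family list at a mean of at least 1 CPM, markers of high CPM, the genes of smallest p for dependence on condition, Cbln4 and Neo1. Other list members were named as well-known genes after their values were seen. The members and lists were chosen with earlier results of these data known. Alternatives were relative log expression scaling, no filter, a replicate block, 12 group means, DESeq2 1.42.0, single conditions, each library left out and, added after seeing the data, 4 libraries left out and GC and length offsets. The scripts were tested on simulated data. Some named genes are not reported here.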

Additional observations from a re-analysis of the deposited data

Results flagged for a closer look

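In 10 of 120 region groups of 9 libraries, over 28 of the genes of largest difference with Cbln4 and Neo1, 1 library stood apart from the rest by Dixon's test, which chance does in about 1 in 20 groups. CA3 fear 2 was high for Ccn2, at 10.09 CPM against 0.684 to 2.03 CPM in the other CA3 libraries, and for Dsp, at 70.5 against 2.85 to 35.3 CPM. CA1 home cage 2 was high for Col23a1, at 5.40 against 1.36 to 3.06 CPM, for Dcn, at 27.9 against 3.86 to 12.3 CPM, and for Rasgef1c, at 2.84 against 0.927 to 1.55 CPM. Igfn1 had 1.32 CPM in CA1 home cage 3, against 0.146 to 0.645 CPM in the others, and Grm8 had 2.71 CPM in CA3 context 2, against 0.113 to 1.36 CPM.

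In entorhinal libraries, Arhgap6 was high in LEC home cage 3, at 61.9 against 38.9 to 48.8 CPM in the other LEC libraries. Spink8 had 2.98 CPM in MEC home cage 2, against 0.425 to 1.29 CPM, and Col11a1 had 7.46 CPM in LEC fear 1, against 1.93 to 4.49 CPM.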

How the results depend on the processing

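The 30 genes of largest difference kept their call in all 46 alternatives. They were chosen from these same libraries for size and for sides that do not overlap. This fixes their direction in any subset and leaves little room for a lost call, so the kept calls are no separate support. List members named as well-known genes were not rerun singly. With home cage libraries only, 2404 genes were higher and 2390 lower, with 1614 and 1437 for LEC minus CA1, 1469 and 1567 for LEC minus CA3, 1473 and 1180 for MEC minus CA1, 1374 and 1309 for MEC minus CA3, 590 and 463 held in all 4 pairs, 359 of them higher by at least 2-fold, and the opposite orders held 0, 0, 3 and 0 genes. With context libraries only, 2840 were higher and 2411 lower, with 2368 and 1928 for LEC minus CA1, 2318 higher for LEC minus CA3, 2285 and 1744 for MEC minus CA1, 808 and 590 held, 191 lower by at least 2-fold, and 0 genes had LEC above and MEC below. With fear libraries only, 2749 were higher for LEC minus CA1, 2554 and 2152 higher and lower for MEC minus CA1, 1013 and 747 held, and the opposite orders held 14, 2, 4 and 6 genes. These fits have 12 libraries. Itga4 turned to -0.48 in context and Ptpro to -0.11 in fear libraries alone; the cause was not tested. GC and length offsets gave 5531 lower for MEC minus CA1, 2193 held as lower, 57 genes above CA3 and below CA1 and 7 with MEC above and LEC below. Without the 4 hippocampal libraries numbered 2 in context and home cage, the opposite orders held 97, 33 and, for MEC above and LEC below, 4 genes, a count of 3 with 12 group means and 4 by DESeq2.

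With the replicate block, 4444 genes were higher and 4098 lower, 1707 and 1254 held, 2 had MEC above and LEC below, and 4 were called for dependence on condition. The 4 regions came from each mouse, but the labels do not tie the numbers to mice, and the numbers were not taken as pairs: 13 of 36 correlations of same-numbered libraries exceeded 0.1 (range -0.68 to 0.52), and 13 of 36 libraries correlated best with their own number. In 2 of 12 comparisons, LEC with CA1 and LEC with CA3 in fear libraries, all 3 pairs exceeded 0.1 and every library correlated best with its own number. Both comparisons use the same LEC fear libraries, and with 3 libraries to choose from such matches also arise by chance. These values therefore do not settle whether the numbers mark mice.

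Leaving out 1 library at a time gave 4323 to 4560 higher and 4065 to 4357 lower, 3912 to 4404 and 3409 to 3975 for LEC minus CA1, 3379 to 3887 and 2873 to 3274 for LEC minus CA3, 3663 to 4012 and 3297 to 3792 for MEC minus CA1, 3112 to 3493 and 2925 to 3260 for MEC minus CA3, 1644 to 1766 and 1217 to 1306 held, 614 to 658 and 284 to 313 by at least 2-fold, 50 to 87, 17 to 30, 11 to 14 and 1 to 5 for the opposite orders, and 0 to 2 for dependence on condition.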
